A study of Homo sapiens with 6 samples.

Results

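GADD45A, GADD45B and GADD45G are the growth arrest and DNA damage inducible genes of the GADD45 family. They were taken by the gene symbols of the platform annotation, with every probe set assigned to 1 gene, which gave 3 genes among 18132 and 6 probe sets among 44988. GADD45B has 4 of these probe sets, and GADD45A and GADD45G have 1 each. The genes were chosen by their log2 differences between the groups on these same arrays, so that difference is described below and not tested.

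The series holds 6 Affymetrix arrays of biotin-labelled total RNA from cells given as HCT116, a colorectal carcinoma line of human origin. Of these, 3 carry the label Ctrl, given as control treatment, and 3 the label CSF3, the gene of granulocyte colony-stimulating factor. All 6 samples were grown in RPMI-1640 with 10% serum and 1% antibiotics. The labels give neither the form in which CSF3 was supplied, nor a dose or a time, nor whether the 3 samples of a group were separate cultures, so p-values reflect how far these samples scatter, possibly for technical reasons alone. Values are log2 signals as the authors scaled them, "rose" and "fell" below mean a limma adjusted p under 0.05 over all 18132 genes, and fewer expressing cells cannot be told apart from less RNA per cell.

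GADD45 proteins are small acidic proteins without enzyme activity that act by binding others. They bind and activate the kinase MAP3K4, which feeds the p38 and JNK stress kinases. They also bind the replication clamp PCNA and the cell cycle inhibitor CDKN1A, take CDK1 away from cyclin B1 to hold cells before mitosis, and take part in the repair-based removal of DNA methylation. GADD45A is best known for its induction after DNA damage. GADD45B, first found in differentiating myeloid cells, is induced by NF-κB and by TGF-β, and its protein can restrain JNK signalling through the kinase MAP2K7. GADD45G, first found as a gene induced by a cytokine, is often silenced in tumours.

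Several values of the arrays bear on what follows. The control probe sets for hybridisation read higher on the CSF3 arrays (median 8.36 ± 0.05 against 6.82 ± 0.07, SD, n = 3 each). The gap between the 3' and 5' probe sets of GAPDH, a sign of RNA integrity and labelling, was 0.306 ± 0.007 on Ctrl and 0.682 ± 0.003 on CSF3 arrays. The same gap of ACTB was 1.34 ± 0.03 on Ctrl and 1.94 ± 0.02 on CSF3 arrays. The dimmer part of the genes had a median change of 0.31 and the brighter part of -0.13. CSF3 itself differed by 1.12 ± 0.14 SE on its brightest probe set (4.83 ± 0.30 against 5.96 ± 0.04), and by 1.77 and 0.59 on the other 2. Epithelial markers were largely dim for a colorectal line: 7 of 12, among them EPCAM, CDH1, KRT19 and CLDN3, lay below the array median of 3.68 to 3.70 in both groups. EPCAM, an epithelial adhesion molecule that HCT116 cells usually express strongly, read 3.63 ± 0.05 and 3.30 ± 0.10 on its brightest of 3 probe sets, and CDH1, which encodes E-cadherin, 2.20 ± 0.09 and 2.24 ± 0.04. The keratin gene KRT18 read 7.26 ± 0.01 and 7.48 ± 0.06 on its brightest probe set, but 7.40 ± 0.06 and 7.31 ± 0.05 on its other. Its direction, counted below as a rise, thus depends on the probe set. KRT8, the gene of the partner keratin of KRT18, read 6.37 ± 0.05 and 5.06 ± 0.17, and the claudin gene CLDN4 5.68 ± 0.05 and 6.32 ± 0.07. KRT8 thus fell by 1.32 ± 0.09 (limma adjusted p = 2.98e-05), with all 8 of its probe sets lower on the CSF3 arrays, and of the 12 epithelial markers 7 rose and 2 fell, where 45.4% of all genes rose and 27.1% fell. Without detection calls these levels do not show whether a gene is off. Those of EPCAM and CDH1 go against the label in both groups, while 3 of the 12 epithelial markers lay above the upper quartile of all probe sets. The origin of the cells was not tested. None of the 8 leukocyte and 10 fibroblast or endothelial markers lay above the upper quartile of all probe sets (5.49), with means up to 4.05 and 4.41 on the CSF3 arrays, where 6 of the 8 and 8 of the 10 rose. The part of these markers in the results below was not tested.

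On GRCh38.p14, GADD45A lies on chromosome 1 from 67685201 to 67688334, GADD45G on chromosome 9 from 89605012 to 89606555 and GADD45B on chromosome 19 from 2476127 to 2478257. The annotation also lists GADD45AP1, a pseudogene of GADD45A, on chromosome 12 from 87820921 to 87821469. Whether the probes of GADD45A also match it was not tested. The promoter windows of GADD45B and GADD45G run from 250 bases before to 50 bases after the annotated start. They come from RefSeq (GRCh38.p14, plus strand, chr19:2475877-2476176 and chr9:89604762-89605061). A window was available for these 2 of the 3 genes. None was available for GADD45A, so its promoter was not searched. Capitals mark exact matches to the letters searched for the E-box, the NF-Y box and the TATA box.
GADD45B: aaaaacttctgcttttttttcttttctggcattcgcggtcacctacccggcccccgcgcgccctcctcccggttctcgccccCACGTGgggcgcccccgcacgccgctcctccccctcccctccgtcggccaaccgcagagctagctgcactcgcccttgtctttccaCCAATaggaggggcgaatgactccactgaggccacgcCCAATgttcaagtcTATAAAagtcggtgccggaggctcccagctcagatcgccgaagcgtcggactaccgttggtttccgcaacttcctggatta
GADD45G: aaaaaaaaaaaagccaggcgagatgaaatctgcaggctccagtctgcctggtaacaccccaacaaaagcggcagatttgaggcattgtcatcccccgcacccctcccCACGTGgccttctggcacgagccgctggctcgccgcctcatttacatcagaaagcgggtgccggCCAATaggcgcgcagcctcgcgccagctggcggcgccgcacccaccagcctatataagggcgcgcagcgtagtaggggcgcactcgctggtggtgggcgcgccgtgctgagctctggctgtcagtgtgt

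Both windows held an E-box (CACGTG), 168 bases before the start in GADD45B and 143 in GADD45G. Both also held an NF-Y box (CCAAT), at 82 bases before the start in GADD45B and at 79 in GADD45G, and GADD45B had another at 45. The exact letters TATAAA, the only form of the TATA box searched, stood 31 bases before the start of GADD45B. The GADD45G window had no exact match but holds the similar letters tatataag, so a TATA box there is not excluded. Among all 35116 promoter windows, searched on both strands, 34.6% held CCAAT, 7.26% CACGTG and 11.5% TATAAA. Both CCAAT and CACGTG were found in 2.33%, a combination counted after the matches were seen. Neither window held the NF-κB decamer (5.91% of all windows), the AP-1 site TGANTCA (7.71%), the cyclic AMP element TGACGTCA (1.85%), the octamer ATGCAAAT (1.77%), the EGR site GCGTGGGCG (0.794%), the STAT site TTCNNNGAA (7.66%) or the GC box GGGCGG (45.0%). These are matches of letters in short windows and say nothing about binding.

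**Figure D1:**
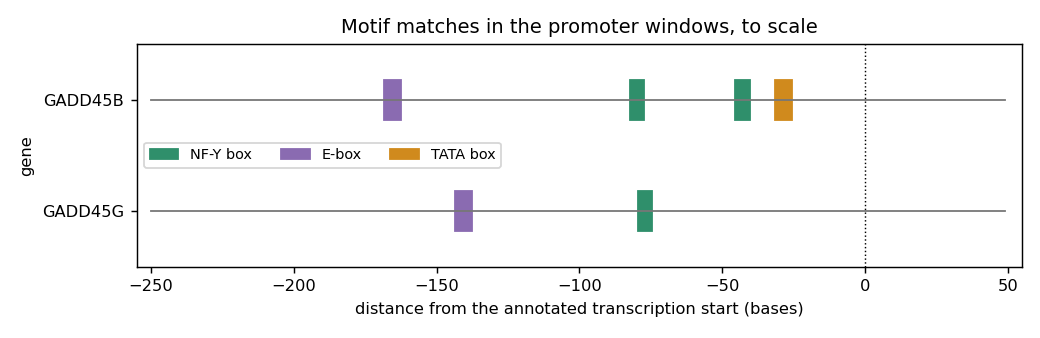
Motif matches in the promoter windows of GADD45B and GADD45G, drawn to scale along the distance from the annotated transcription start in bases. Boxes are exact matches to the E-box (CACGTG), NF-Y box (CCAAT) and TATA box (TATAAA), and other forms were not searched. An E-box lies upstream of an NF-Y box in both genes.

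All 6 GADD45 probe sets read higher on the CSF3 arrays, and for all 6 every CSF3 array lay above every Ctrl array. Of all 44988 probe sets, 58.9% had a higher mean on the CSF3 arrays and 39.8% had groups that did not overlap with CSF3 higher. Since the genes were chosen for this contrast, nothing is read from the counts of the family. On the brightest probe set of each gene, the log2 difference was largest for GADD45G, then GADD45B, then GADD45A.

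GADD45A, the member best known from DNA damage, read 9.70, 9.64 and 9.72 on the Ctrl arrays and 10.62, 10.64 and 10.62 on the CSF3 arrays. The CSF3 arrays were nearly identical (SD 0.011) and the lowest of them lay 0.89 above the highest Ctrl array. The means were 9.69 ± 0.04 and 10.63 ± 0.01 (SD, n = 3 each), and the log2 difference was 0.94 ± 0.06 (SE), a 1.92-fold ratio of signals. By size of rise the gene ranked 174th of 18132.

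GADD45B, the member induced by NF-κB and TGF-β, was read by 4 probe sets. Its brightest, 11759525_at, read 7.57, 7.56 and 7.56 on the Ctrl arrays and 9.46, 9.44 and 9.32 on the CSF3 arrays. The Ctrl arrays were nearly equal, while CSF3 replicate 3 lay below the other CSF3 arrays. The log2 difference was 1.84 ± 0.06 (SE), a 3.59-fold ratio, and the gene ranked 9th. Probe set 11757865_a_at, whose suffix marks probes shared by several transcripts of a gene, read 6.46, 6.57 and 6.56 on Ctrl and 8.27, 8.27 and 8.20 on CSF3 arrays. Its difference of 1.72 ± 0.06 lay close to that of the brightest one. Probe set 11763624_x_at, whose suffix marks probes that can hybridise with other transcripts, read 5.60, 5.52 and 5.65 against 6.30, 6.34 and 6.39. Its difference was 0.75 ± 0.06. The dimmest, 11764031_at, read 3.71, 3.74 and 3.80 against 4.58, 4.90 and 4.65, with CSF3 replicate 2 the highest. Its difference was 0.96 ± 0.09. By size of rise among all 44988 single-gene probe sets, the 4 ranked 14th, 20th, 984th and 292nd in the order given.

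The 4 probe sets of GADD45B thus shared their direction and differed in size, with 1.84 and 1.72 on the 2 brighter and 0.75 and 0.96 on the 2 dimmer ones. Within each array, the gap between the brightest probe set and 11757865_a_at was 1.04 ± 0.07 on Ctrl and 1.16 ± 0.04 on CSF3 arrays, a shift of 0.12. The gap to 11763624_x_at widened by 1.09, from 1.97 ± 0.07 to 3.07 ± 0.12, and that to 11764031_at by 0.88, from 3.81 ± 0.05 to 4.70 ± 0.17. Both of these shifts exceeded the spread between arrays of a group several times over. The size of the GADD45B difference therefore depends on the probe set, and the mean of all 4 gave 1.32. The Ctrl level of 11764031_at, 3.75 ± 0.04, lay next to the array median of 3.68. Without detection calls it is not known to exceed background, so its difference may not give the size of the change in RNA. Which part of the transcript each probe set covers was not analysed here.

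GADD45G, the member often silenced in tumours, read 3.41, 3.48 and 3.24 on the Ctrl arrays and 5.44, 5.43 and 5.68 on the CSF3 arrays. Replicate 3 was the lowest Ctrl and the highest CSF3 array. The means were 3.38 ± 0.12 and 5.52 ± 0.14 (SD, n = 3 each), with a difference of 2.14 ± 0.10 (SE) between the signals as deposited. The Ctrl level lay below the array median, and without detection calls it is not known to exceed background, so this difference may not give the size of the change in RNA, and neither a fold nor a rank is given.

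**Figure D2:**
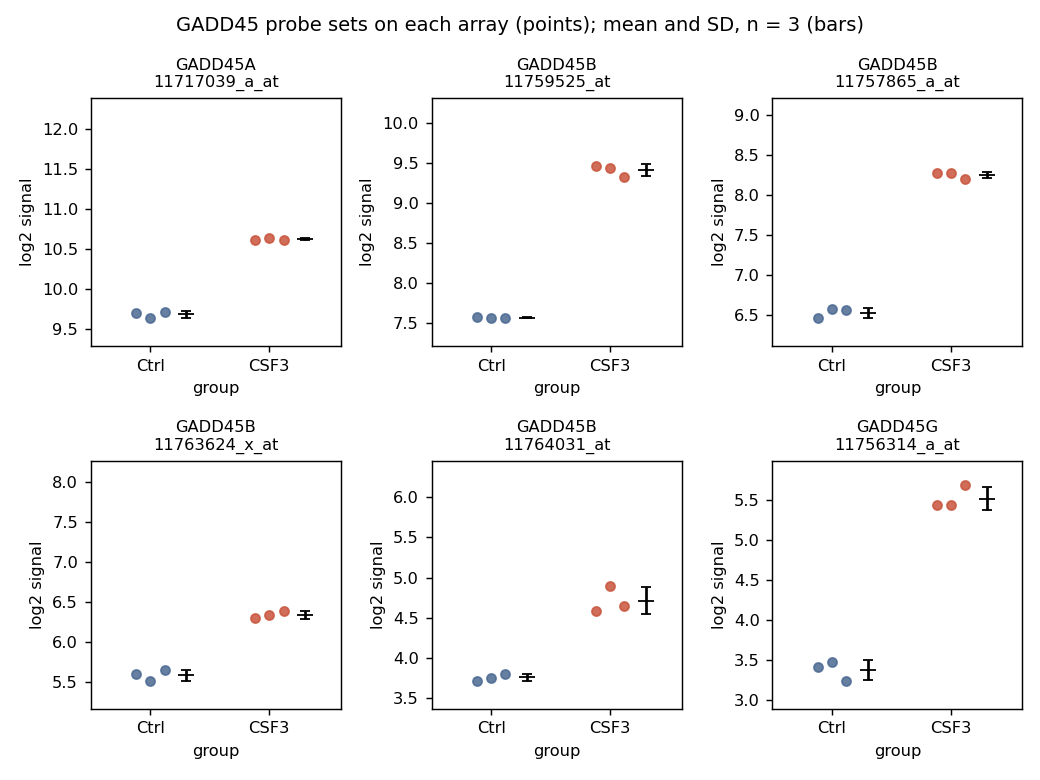
Log2 signal of the 6 GADD45 probe sets on each array by group, with points for arrays and bars for the mean and SD (n = 3). Each panel spans the same number of log2 units from its own base, and in all 6 the CSF3 points lie above the Ctrl points.

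Quantile normalization changed the sizes of these differences but not the order of the 3 genes. After it they were 1.00 for GADD45A, 1.99 for GADD45B and 2.23 for GADD45G. Subtraction of array medians gave 0.92, 1.82 and 2.12, but it shifts all genes alike and cannot change their order. Probe sets of like level had medians near or below 0. The median difference of the tenth of all probe sets with the level of GADD45A and of the 2 brighter GADD45B probe sets was -0.15, and that of the tenth with the level of GADD45G was -0.12. For 11763624_x_at and 11764031_at it was -0.24 and 0.02. The wider GAPDH and ACTB gaps and the brighter hybridisation controls lay on the same CSF3 arrays as the GADD45 rises, and their part was not tested. The median shift of the hybridisation controls, from 6.82 to 8.36, was larger than the differences of GADD45A, 11763624_x_at and 11764031_at. It was smaller than those of GADD45G and of the 2 brighter GADD45B probe sets.

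**Figure D3:**
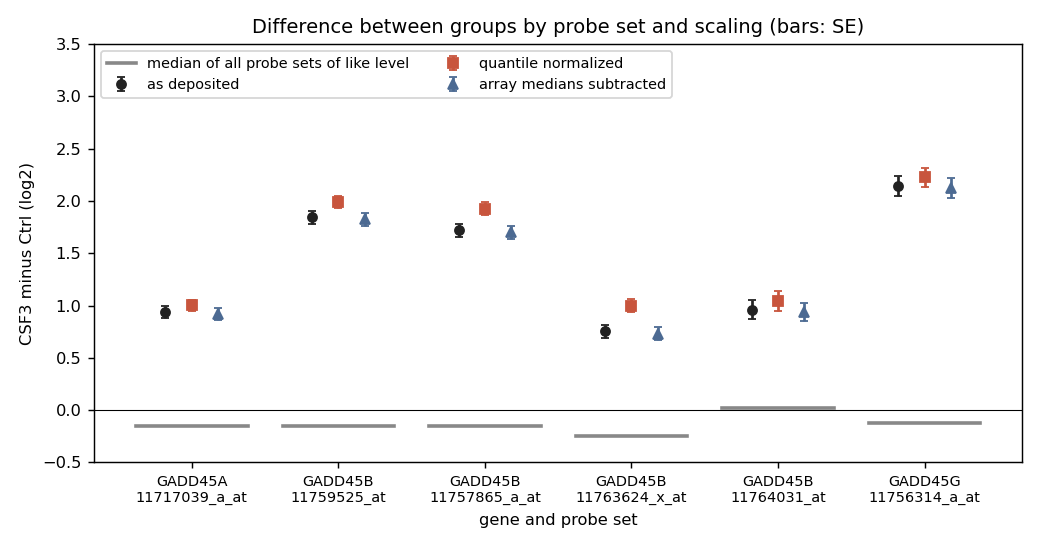
CSF3 minus Ctrl on the log2 scale for each GADD45 probe set as deposited, after quantile normalization and after subtraction of array medians, with bars for the SE. Grey lines give the median difference of the tenth of all probe sets with a like level, between -0.24 and 0.02, below every GADD45 value.

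Between arrays of the same group the correlations among the 3 genes varied with the gene and the probe set. With both group means removed, Pearson's r over the 6 arrays was 0.14 between GADD45A and GADD45B, -0.70 between GADD45A and GADD45G and -0.72 between GADD45B and GADD45G, on the brightest probe sets. Within GADD45B, the 2 brighter probe sets had an r of 0.47, and the brightest and 11763624_x_at had -0.55. With the other GADD45B probe sets, from brighter to dimmer, GADD45A had an r of -0.18, 0.74 and 0.34, and GADD45G of -0.48, -0.09 and -0.40. These are descriptions of small deviations on shared arrays, with 2 means already taken from 6 values. They do not show whether the 3 genes move together.

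The genes most like each member were found by the root mean square distance over the 6 arrays after each gene's own Ctrl mean was subtracted. For GADD45A these were LINC00308, the NF-κB inhibitor gene NFKBIE and the splicing factor gene SRRM2, at distances of 0.032, 0.033 and 0.036 log2 units. In all, 690 other genes lay within 0.2 of GADD45A. For GADD45B they were ID2, RUNX1T1 and NFKBIA, each at 0.12, and 11 genes lay within 0.2. For GADD45G they were CXADR (0.11), NFKBIA (0.15) and POM121L8P (0.17), and these were the 3 genes within 0.2. NFKBIA, the gene of IκBα, an inhibitor of NF-κB, was near both GADD45B and GADD45G. Its difference of 1.99 lay between theirs of 1.84 and 2.14. With only Ctrl means subtracted, the distance depends largely on the size of the difference, by which the family was chosen. Nothing about shared regulation is therefore read from these neighbours or their counts.

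Binding partners of GADD45 proteins and the stress kinases they act on went both ways. Of 24 measured genes of the 27 listed, 8 rose and 9 fell, with a median of 0.0055. Over all 18132 genes 45.4% rose and 27.1% fell, 72.5% in all, with a median of 0.16. Without the 30% dimmest genes, 4767 genes rose and 4883 fell, with a median of 0.00015, and 15 of the 24 genes of this list lay above the upper quartile of all probe sets. MAP3K4, the kinase that GADD45 proteins activate, fell by 0.42 ± 0.06 (5.94 ± 0.04 to 5.52 ± 0.06, limma adjusted p = 0.000546). Below it, MAP2K3, a kinase that activates p38, rose by 0.53 ± 0.05, as did MAPK11, which encodes p38β, by 0.72 ± 0.07, while MAPK9, which encodes JNK2, fell by 0.74 ± 0.06 (limma adjusted p = 0.000114, 0.000121 and 4.96e-05). With all probe sets averaged MAPK11 differed by 0.36 and MAPK9 by -0.34. Neither kinase group had 1 direction as deposited. The p38 genes MAPK12 and MAPK13 fell by 0.55 and 0.70, and of the JNK genes MAPK8 fell by 0.15 and MAPK10 rose by 0.41. CDKN1A and PCNA, which encode direct partners, rose by 0.37 ± 0.05 and 0.38 ± 0.05. CDK1 rose by 0.23 ± 0.05, and CCNB1, which encodes its partner cyclin B1, fell by 0.36 ± 0.06 (limma adjusted p = 0.00490 and 0.00151). GADD45GIP1, which encodes a mitochondrial protein that binds GADD45 proteins, differed by 0.07 ± 0.05 and did not pass (limma adjusted p = 0.212). The nuclear receptor gene PPARA fell by 1.06 ± 0.07 on its brightest probe set, but all 9 of its probe sets averaged gave -0.01 (limma adjusted p = 0.805).

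Quantile normalization changed several of these calls. MAP3K4 and CCNB1 lost theirs, with -0.15 and -0.10 (limma adjusted p = 0.0528 and 0.199), GADD45GIP1 gained one at 0.27 (limma adjusted p = 0.00209), CDK1 moved to 0.41 and MAPK9 to -0.49, and the list then had 10 higher and 6 lower. The CDK1 call was lost without probe sets ending in _s_at or _x_at, at 0.08 (limma adjusted p = 0.261).

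In the values as deposited, factors of DNA methylation, demethylation and excision repair fell more often than they rose. Of 16 measured of 19, 9 fell and 6 rose, with a median of -0.27. These are 56.25% and 37.5%, against 27.1% and 45.4% of all genes. The counts include genes that set or keep DNA methylation: DNMT1 and UHRF1 fell by 0.25 and 0.56, and DNMT3A and DNMT3B rose by 0.34 and 0.26. Of the 16, 10 lay above the upper quartile of all probe sets, and the brighter part of all genes had a median of -0.13. After quantile normalization 7 fell and 7 rose. With all probe sets averaged 7 fell and 5 rose, with a median of -0.09. ERCC1, which encodes a subunit of a repair endonuclease, fell by 0.81 ± 0.06 (9.79 ± 0.06 to 8.98 ± 0.04, limma adjusted p = 3.49e-05). XPC, which encodes a sensor of DNA lesions, fell by 0.63 ± 0.07 (limma adjusted p = 0.000173), or -0.38 after quantile normalization. ING1, which encodes a chromatin reader that binds GADD45A, rose by 0.80 ± 0.06 where it was brightest (limma adjusted p = 4.23e-05), while its 5 probe sets ran from -0.19 to 0.80 and averaged 0.29. The fall of TET3, which oxidises methylated cytosine, by 0.66 ± 0.06 rested on 1 of its 2 probe sets, and their mean gave -0.01 (limma adjusted p = 0.845).

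Transcription factors known to act on GADD45 genes were divided. Of 29 measured of 32, 9 rose, 8 fell and 12 did not pass, with a median of 0.04. The 9 and 8 are 31.0% and 27.6%, against 45.4% and 27.1% of all genes. After quantile normalization, however, 16 rose and 3 fell, where 7107 and 3637 of all 18132 genes did. ATF3, a stress-induced factor, rose by 1.28 ± 0.05 (7.17 ± 0.03 to 8.46 ± 0.04, limma adjusted p = 8.45e-06), and the mean of its 7 probe sets by 0.72. KLF4, an epithelial factor tied to growth arrest, rose by 1.20 ± 0.07 from 4.64 ± 0.06 (limma adjusted p = 1.64e-05). FOXO4 rose by 0.49 ± 0.05 and EGR1, an activator of GADD45A, by 0.37 ± 0.07 (limma adjusted p = 0.000208 and 0.00262). FOXO4 moved to 0.75 after quantile normalization, and EGR1 to 0.20 without probe sets ending in _s_at or _x_at. MYC, which represses GADD45A, fell by 0.35 ± 0.05 (9.39 ± 0.05 to 9.04 ± 0.03, limma adjusted p = 0.000881). ATF2 has no settled direction: its brightest probe set fell by 0.95 ± 0.07, the mean of its 5 gave -0.05 (limma adjusted p = 0.320), and its brightest one ending in neither _s_at nor _x_at rose by 0.24 (limma adjusted p = 0.0149).

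Other genes induced by growth arrest or DNA damage rose more often than they fell. Of 34 measured of 36, 19 rose, 8 fell and 7 did not pass, with a median of 0.29. These are 55.9% and 23.5%, against 45.4% and 27.1% of all genes, which also rose more often than they fell. IER3, an early response gene, rose by 0.74 ± 0.05 (7.35 ± 0.02 to 8.09 ± 0.01, limma adjusted p = 2.60e-05). TRIB1, which encodes a pseudokinase, rose by 0.66 ± 0.05, the antiproliferative gene BTG1 by 0.81 ± 0.07, and PMAIP1, which encodes the cell death protein NOXA, by 0.66 ± 0.06 (limma adjusted p = 4.86e-05, 5.98e-05 and 6.84e-05). Without probe sets ending in _s_at or _x_at BTG1 differed by 0.22 (limma adjusted p = 0.0267). The number that fell was 5 without Ctrl replicate 2 and 5 without CSF3 replicate 3.

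**Figure D4:**
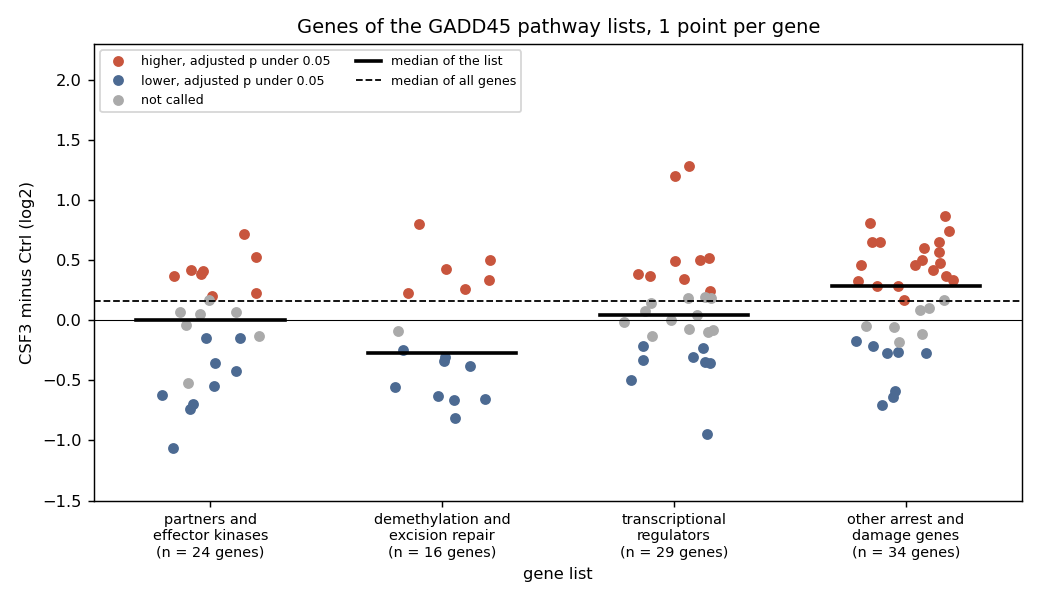
CSF3 minus Ctrl on the log2 scale for the measured genes of the 4 lists, 1 point per gene, coloured by the limma call, with the median of each list as a bar and that of all genes (0.16) as a dashed line. The dashed line lies at 0.00015 without the 30% dimmest genes and at 0.13 after quantile normalization, where the median of the 29 regulators is 0.18, above it and not below it as drawn.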

How the data were processed

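The authors deposited log2 values of 49395 probe sets on each of 6 arrays, as far as the values show (0.81 to 12.7). How they were background corrected, summarised and scaled, and the log base, is not given in the sources read, and scanner files were not used. By the platform annotation, 44988 probe sets have 1 gene, 1832 several, 2473 none and 102 are controls. Each gene was read from its brightest probe set, by the mean over all arrays. CSF3 minus Ctrl was fitted with lmFit and eBayes (limma 3.58.1, R 4.3.3) on all 18132 genes, without filter or covariates, with Benjamini-Hochberg adjustment and a threshold of 0.05. Standard errors of the GADD45 probe sets came from the same fit on all single-gene probe sets. Changes are log2 differences ± SE and levels mean ± SD. The number of arrays limits the precision.

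The members and the 4 lists were chosen with earlier results of these data known. Genes named are the family, CSF3, the 4 genes with the smallest p in each list and the 3 genes nearest each member. A few partners, regulators and other genes of the lists are named as well. In simulated data for CSF3 against Ctrl on 18132 genes, the fit recovered 34%, 82%, 96% and 100% of genes changed by 0.25, 0.5, 1 and 2. Only a small share of genes was changed there, and both groups had the spread of the Ctrl arrays. In the data 72.5% of genes were called, so these shares do not carry over to the real comparison. Alternatives were quantile normalization, subtraction of array medians, other choices of probe set, a filter on dim genes, array weights, other variance settings, a replicate block and leaving out each array. A further motif that was searched is not reported here.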

Additional observations from a re-analysis of the deposited data

How the results depend on the processing

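The 6 GADD45 probe sets read higher, without overlap of the groups, after quantile normalization and after subtraction of array medians. The other alternatives keep the values of each probe set or only drop an array, so they could not make the groups overlap. The differences of GADD45A and GADD45B moved by more than the spread between arrays after quantile normalization, to 1.00 and 1.99, and that of GADD45B with all probe sets averaged, to 1.32. Leaving out 1 array gave 0.915 to 0.956 for GADD45A, 1.82 to 1.89 for GADD45B and 2.06 to 2.19 for GADD45G. Of the regulators, 16 rose and 3 fell after quantile normalization. Without the 30% dimmest genes 4767 genes rose and 4883 fell, with a median of 0.00015, so the excess of rises over falls lay among the dim genes left out. Leaving out 1 array gave 5 to 8 falls among the other arrest and damage genes. ATF2 turned to 0.24 without probe sets ending in _s_at or _x_at. For the lost calls the cause was not tested. Same-numbered arrays did not deviate together (r of 0.038, 0.030 and 0.027), and with the replicate number as a block 8086 genes rose and 4782 fell.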
